A study of Mus musculus with 3 samples.

Results

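CD200 and its receptors form a small family of paired membrane proteins, and 4 of its mouse genes were followed here among the 31053 genes counted: the ligand gene *Cd200*, the inhibitory receptor gene *Cd200r1*, and the activating receptor genes *Cd200r3* and *Cd200r4*. The members were picked by symbol and selected on their measured levels in vitamin D3-treated and untreated cultures of these same data. Their levels and ratios are therefore given as descriptions, with no test.

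CD200 is a surface glycoprotein of endothelium, lymphocytes, neurons and some dendritic cells (DCs), with a short tail that is not known to signal. It binds CD200R1, a receptor of myeloid and mast cells that recruits DOK adaptors and restrains cytokine release. The receptors encoded by *Cd200r3* and *Cd200r4* lack this inhibitory tail and pair with the activating adaptor DAP12, the product of *Tyrobp*.

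Bone marrow of C57/BL6 mice was grown with GM-CSF until day 7 and was then either left untreated (Co-Mac) or given 1,25-dihydroxyvitamin D3 (VD3) at 1 µM for 24 hours (VD-Mac). In the other arm, human split-thickness skin was placed under the skin of wild-type mice of the same strain, and cells of these grafts were taken after 14 days with 5 mice pooled (hSTSG). Single-cell RNA was counted in 1 library per condition, and only mouse genes were counted. Whether human RNA was read as mouse genes in the graft library was not tested. The treated and untreated cultures address how VD3 changes these cells, and the graft library has no untreated counterpart.

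The libraries held 136905324 gene UMIs (unique molecular identifiers, counts of captured RNA molecules) in Co-Mac, 124731240 in VD-Mac and 24472168 in hSTSG. After filtering, 7257 of 7866 barcodes were kept in Co-Mac (median 15804 UMIs), 8825 of 9794 in VD-Mac (median 12089) and 2144 of 2644 in hSTSG (median 6637.5). Of the kept cells, 4500, 3626 and 574 held at least 1 UMI of a member. Co-Mac and VD-Mac shared 19 cell barcodes, and each shared 7 with hSTSG. Levels are in CPM, the UMIs of a gene per 1000000 gene UMIs summed over the cells of a group. Ranges in parentheses are exact 95% intervals, from the Poisson distribution for a level and from the conditional binomial for a ratio. With 1 library per condition such a range holds the error of counting and no difference between cultures or mice. Where a group had 0 UMIs or 0 cells with one, the limit given is 3 counts, close to a one-sided 95% limit and lower than the end of the two-sided range.

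Although both cultures are labelled as macrophages, their cells fell into several classes by marker genes. In Co-Mac, 2639 cells were mature DC-like, 2591 monocyte- or macrophage-like, 888 granulocyte-like, 103 granulocyte precursor-like, 79 cDC1-like, 33 B lineage-like and 26 basophil or mast cell-like. In VD-Mac, 3319 were mature DC-like, 2219 monocyte- or macrophage-like, 1021 granulocyte-like, 117 cDC1-like, 39 B lineage-like and 36 basophil or mast cell-like. The graft held 589 monocyte- or macrophage-like, 516 granulocyte-like, 301 T cell-like, 143 fibroblast-like, 82 mature DC-like, 43 B lineage-like, 25 endothelial-like and 13 basophil or mast cell-like cells. The leading genes of the VD-Mac B lineage-like cluster held 5 platelet genes among the first 10 (*Itga2b*, *Itgb3*, *Pf4*, *Nrgn* and *Gng11*), for which no marker set was used. Its values are therefore those of a cluster with B lineage and platelet RNA. The clusters left without a name held 898, 2074 and 432 cells. Among them were VD-Mac cluster 8 (3.46% of the library), in which 8 macrophage markers were detected, and VD-Mac cluster 10 (1.93%), in which 7 mature DC markers were. The largest unnamed clusters were cluster 2 of the cultures (559 cells, 7.70% of Co-Mac, and 1454 cells, 16.5% of VD-Mac) and graft cluster 1 (395 cells, 18.4%), in which 5 monocyte markers were detected. Co-Mac clusters 9 (3.25%) and 10 (0.882%) and cluster 12 of both cultures (0.510% and 1.03%) also stayed unnamed, as did some clusters of under 50 cells.

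Different clusters held most of the mature DC-like cells and the monocyte- or macrophage-like cells in the cultures. The mature DC-like cells were mostly cluster 1 in Co-Mac (2624 cells) and cluster 0 in VD-Mac (3305 cells). The monocyte- or macrophage-like class was made of clusters 4 and 7 in Co-Mac and clusters 5 and 6 in VD-Mac. Cluster 4 (*Mki67* 257 CPM) and cluster 5 (328 CPM) were the cycling pair, and cluster 7 (12.7 CPM) and cluster 6 (23.3 CPM) the pair with little *Mki67*. The class also differed in its markers. The 9 macrophage markers summed to 1448 CPM in Co-Mac and 2875 in VD-Mac, where 9 and 8 of them reached 10 CPM and *C1qb* was the most abundant (496 and 955 CPM). The 6 monocyte markers summed to 1566 and 270 CPM, with 5 and 3 of them at 10 CPM or more and *Fn1* (655 CPM) and *Ly6c2* (146 CPM) the most abundant. The 8 granulocyte markers summed to 3659 and 9399 CPM, led by *S100a8* (2133 and 5409 CPM), with 1 of the 8 at 0 in both. The cultures were clustered together, and the Co-Mac cells of cluster 5 were the granulocyte precursor-like class. The 7 granulocyte precursor markers summed to 110 CPM in the Co-Mac monocyte- or macrophage-like class and 374 in the VD-Mac one, with 2 and 6 of them at 10 CPM or more and *Ms4a3* (52.0 CPM) and *Ngp* (163 CPM) the most abundant. The part of these shifts in the ratios below was not tested.

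The treatment could be read from 2 genes of the vitamin D response. *Cyp24a1*, which encodes the enzyme that inactivates the hormone and is a standard target of its receptor, had 1 UMI in Co-Mac and 36662 UMIs (315 CPM) in VD-Mac. The log2 ratio was 15.35 (12.87 to 20.65). *Vdr*, the receptor gene, had 51.1 CPM in Co-Mac, 135 in VD-Mac and 52.1 in hSTSG. The graft had 0 UMIs of *Cyp24a1*, which allows up to 0.132 CPM.

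*Cd200*, the ligand gene (ENSMUSG00000022661), had 19.0 CPM (18.3 to 19.8) over all Co-Mac cells, 30.3 (29.3 to 31.3) over all VD-Mac cells and 33.4 (31.1 to 35.9) over all graft cells. The log2 ratio of VD-Mac over Co-Mac was 0.67 (0.60 to 0.75). It was 0.28 with the make-up of Co-Mac applied to both cultures over the 7 groups they share, and 0.28 as a mean over cells, so the cause of the shift was not isolated.

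Mature DC-like cells had the highest *Cd200* level of the culture classes. They held 52.4 CPM (50.2 to 54.7) in Co-Mac and 57.7 (55.6 to 59.9) in VD-Mac, a log2 ratio of 0.14 (0.06 to 0.22). In hSTSG the 82 mature DC-like cells had 286 CPM (255 to 320), above both cultures. The 302 graft UMIs lay in 37 of the 82 cells, and 297 of them lay in the 64 cells with a UMI of *Ccr7*, the chemokine receptor that guides mature DCs to lymph nodes. Among the unnamed clusters, cluster 10 had 63.5 CPM in Co-Mac and 66.4 in VD-Mac, and VD-Mac cluster 8 had 32.0.

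Endothelial-like cells of the graft stood next to the mature DC-like cells in the order of *Cd200* levels, at 271 CPM (230 to 317), and the 2 intervals overlapped. The level came from 156 UMIs in 22 of 25 cells, of which 26 lay in 1 cell. All 5 endothelial markers were at 10 CPM or more in this cluster, summing to 4173 CPM, but the 9 macrophage markers also summed to 1342 CPM (all at 10 CPM or more, *Apoe* 653), the fibroblast markers to 1005 CPM (*Col3a1* 517) and the 5 pericyte or smooth muscle markers to 927 CPM (*Rgs5* 729). Their part in the level was not tested. Below these groups and the mature DC-like cells of the cultures came, among others, the B lineage-like cells (22.0 CPM from 6 UMIs in Co-Mac, 18.4 from 5 in VD-Mac, 18.0 from 16 in hSTSG), graft T cell-like cells (18.0 CPM, 12.5 to 25.2, with 28.1 in cluster 4 and 1.40 from 1 UMI in cluster 6) and fibroblast-like cells (12.9 CPM, 9.45 to 17.1). Of the 16 graft B lineage UMIs, 12 lay in 1 cell of 95060 UMIs that had 0 UMIs of the B lineage genes *Igkc* and *Cd79a*, and the level without that cell was 5.03 CPM. The intervals of these groups overlapped with one another. They did not reach the mature DC-like cells above, and that of fibroblast-like cells did not reach VD-Mac monocyte- or macrophage-like cells below.

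In monocyte- or macrophage-like cells *Cd200* was low in both cultures, at 2.77 CPM (2.40 to 3.18) in Co-Mac and 5.80 (5.12 to 6.54) in VD-Mac. The log2 ratio was 1.07 (0.80 to 1.34), but it was -0.068 when only cells with less than 5% mitochondrial UMIs were kept, and 1.65 in cells with 3 or more C1q UMIs, a gate chosen after seeing the data. Cells with a *Ccr7* UMI, 555 of 2591 in Co-Mac and 442 of 2219 in VD-Mac, carried 80.3% and 80.9% of the *Cd200* UMIs of this class. Their median depths were 35925 and 27265.5 UMIs, beside 22020.5 and 16518 in cells without a *Ccr7* UMI. In the cells without one, a split chosen after seeing the data, the levels were 0.777 and 1.56 CPM and the log2 ratio was 1.01 (0.38 to 1.64). The graft class had 20.5 CPM (17.7 to 23.6). There cells with and without a *Ccr7* UMI had 12.1 (3.92 to 28.2) and 20.9 CPM (18.0 to 24.1), and 564 of the 589 cells were without one. Within the graft class, cluster 2, led by *Gpnmb* and *Mmp12*, had 31.6 CPM (27.2 to 36.4) and cluster 3, led by *Cd163* and *Ccl8*, had 1.43 (0.466 to 3.35).

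Of the other classes, cDC1-like cells lay among the groups above, with 21.1 CPM of *Cd200* in Co-Mac and 13.2 in VD-Mac, from 24 and 20 UMIs, and the interval of the log2 ratio of -0.68 (-1.61 to 0.24) included 0. Granulocyte-like cells had 1.39, 1.95 and 0.671 CPM in Co-Mac, VD-Mac and hSTSG, from 6, 7 and 1 UMIs. Granulocyte precursor-like cells of Co-Mac had 2.68 CPM. Basophil or mast cell-like cells had 1 UMI in Co-Mac, 6 in VD-Mac and 0 in hSTSG, where the limit is 47.9 CPM. VD-Mac cells of this class had 14.6 CPM (5.36 to 31.8).

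To compare shares of positive cells at one depth, each cell was thinned to 2000 UMIs and shallower cells were left out. A *Cd200* UMI was then found in 9.43% of 2630 mature DC-like cells of Co-Mac (exact binomial 95% interval 8.34 to 10.6%), 10.8% of 3304 of VD-Mac (9.74 to 11.9%) and 32.4% of 74 of hSTSG (22.0 to 44.3%). Granulocyte-like cells, at 0.322% of 621 in Co-Mac and 0.277% of 722 in VD-Mac, are set against these as a type with little *Cd200*; whether their UMIs are free RNA was not tested. The shares of monocyte- or macrophage-like cells, 0.425% and 0.857%, had intervals that overlapped with these granulocyte shares, and 3.11% (1.82 to 4.94%) of 546 such cells of the graft had a UMI. In whole cells the mature DC-like shares were 43.0% (median depth 14457 UMIs), 45.0% (13676) and 45.1% (13718.5). Granulocyte-like shares were then 0.563% (2830.5) and 0.588% (2671), and thinning had left out 9, 15 and 8 mature DC-like and 267 and 299 granulocyte-like cells.

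**Figure D1:**
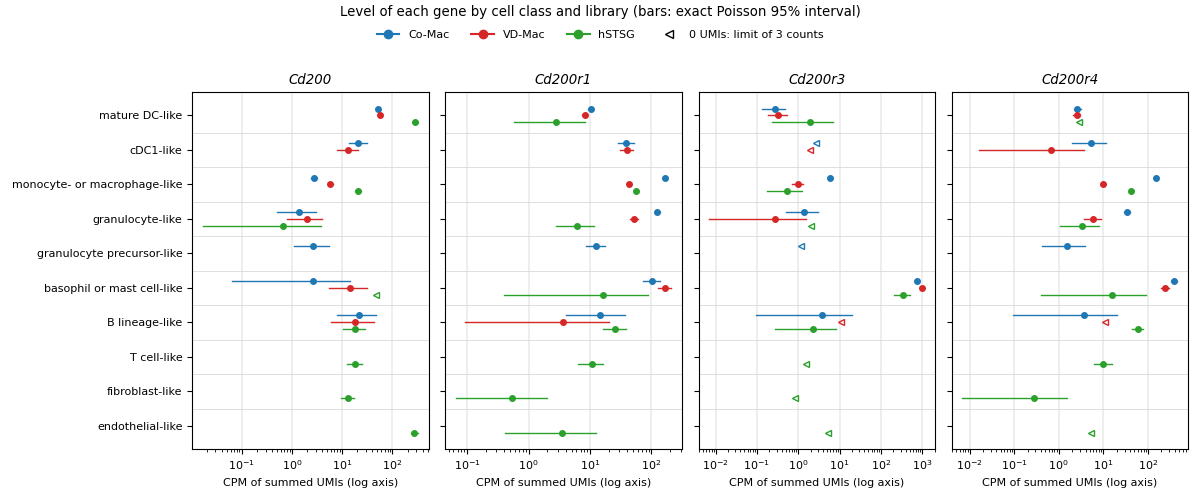
Level of each gene in CPM of summed UMIs (log axis) by cell class, with blue points for Co-Mac, red for VD-Mac and green for hSTSG, bars for the exact Poisson 95% interval, and open triangles for the limit of 3 counts where 0 UMIs were found. *Cd200* was highest in graft mature DC-like (286 CPM) and endothelial-like cells (271 CPM), *Cd200r1* in Co-Mac monocyte- or macrophage-like (165 CPM) and VD-Mac basophil or mast cell-like cells (163 CPM), and *Cd200r3* and *Cd200r4* in basophil or mast cell-like cells.

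*Cd200r1*, the inhibitory receptor gene (ENSMUSG00000022667), had 107 CPM (106 to 109) over all Co-Mac cells, 26.5 (25.6 to 27.5) over all VD-Mac cells and 28.8 (26.6 to 31.1) over all graft cells. It was 4.05-fold lower in VD-Mac than in Co-Mac, a log2 ratio of -2.02 (-2.07 to -1.96). With the Co-Mac make-up in both cultures the log2 ratio was -1.81.

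In the monocyte- or macrophage-like class the level of *Cd200r1* was 165 CPM (162 to 168) in Co-Mac and 42.6 (40.7 to 44.5) in VD-Mac, a 3.88-fold difference and a log2 ratio of -1.96 (-2.03 to -1.89). Between the clusters with little *Mki67* it was 238 and 53.7 CPM (log2 ratio -2.15, -2.25 to -2.05), and between the cycling clusters 133 and 35.0 CPM (-1.92, -2.02 to -1.83). Lower *Cd200r1* was thus measured in both pairs. The graft class had 55.8 CPM (51.1 to 60.7), with 56.5 in its cluster 2 and 54.5 in cluster 3, and unlike for *Cd200* the intervals of the 2 graft clusters overlapped.

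Granulocyte-like cells had 125 CPM of *Cd200r1* (114 to 136) in Co-Mac and 52.2 (45.0 to 60.3) in VD-Mac, with a log2 ratio of -1.25 (-1.50 to -1.01). In hSTSG they had 6.04 CPM (2.76 to 11.5), below both cultures, with 17.4 CPM in the 40 cells of cluster 9, led by *Ngp* and *Camp*, and 2.62 in the 476 cells of cluster 0. Macrophage markers were present in this class too, summing to 1200 CPM in Co-Mac and 474 in VD-Mac with 6 of 9 at 10 CPM or more in each, and led by *Apoe* (505 CPM) and *Cd68* (145 CPM). The 6 monocyte markers summed to 441 CPM in Co-Mac (5 at 10 CPM or more) and 83.5 in VD-Mac (1), led by *Ly6c2* (232 and 69.0 CPM). Their part in the ratios of *Cd200r1* and *Cd200r4* in this class was not tested. In the cells with at least 10 *S100a8* UMIs, a split chosen after seeing the data, the *Cd200r1* levels were 95.9 and 40.4 CPM and the log2 ratio was again -1.25 (-1.63 to -0.88).

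Mature DC-like cells had little *Cd200r1*, with 10.3 CPM (9.36 to 11.3) in Co-Mac, 8.19 (7.42 to 9.03) in VD-Mac and 2.84 (0.586 to 8.30) in hSTSG. The log2 ratio was -0.33 (-0.53 to -0.13). cDC1-like cells had 38.7 CPM in Co-Mac and 39.6 in VD-Mac, with a log2 ratio of 0.03 (-0.56 to 0.63). In this class the 8 granulocyte markers summed to 53.7 and 1001 CPM (1 and 4 at 10 CPM or more, 5 and 2 at 0, led by *S100a8*), the 7 cDC1 markers to 2041 and 905 CPM and the 7 DC markers to 950.0 and 292 CPM. The 9 macrophage markers summed to 132 and 423 CPM, with 6 at 10 CPM or more in each culture. Of these, *C1qb* (15.8 and 114 CPM) and *C1qc* (2.64 and 67.2 CPM) were higher in VD-Mac and *Apoe* (17.6 and 1.32 CPM) was lower. Their part in the result was not tested.

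In basophil or mast cell-like cells the inhibitory receptor gene was higher in VD-Mac, at 163 CPM (126 to 207) against 101 (71.8 to 138). The log2 ratio of 0.69 (0.10 to 1.30) rested on 67 and 39 UMIs in 36 and 26 cells. It was 1.38 with each culture clustered on its own. Graft cells of this class had 1 UMI. Lower levels of *Cd200r1* were found in graft B lineage-like cells (25.8 CPM, or 16.3 without the 1 deep cell that held 10 of the 23 UMIs), B lineage-like cells of Co-Mac (14.7 CPM from 4 UMIs) and VD-Mac (3.68 from 1 UMI), Co-Mac granulocyte precursor-like cells (12.6 CPM), T cell-like cells (10.6, with all 20 UMIs in cluster 4), endothelial-like cells (3.47 from 2 UMIs) and fibroblast-like cells (0.547 from 2 UMIs). In the unnamed clusters it was 41.2 CPM in Co-Mac and 18.6 in VD-Mac for cluster 2, 139 and 53.2 for cluster 9, 27.9 in VD-Mac cluster 8 and 18.2 in graft cluster 1. Cluster 12 had 27.0 CPM in Co-Mac and 24.5 in VD-Mac, with a log2 ratio of -0.14 (-1.36 to 1.19). Cluster 10 had 2.76 and 4.06 CPM, from 1 and 3 UMIs. All unnamed cells together had 111 CPM in Co-Mac and 27.3 in VD-Mac.

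After thinning, *Cd200r1* was found in 27.2% of 2590 monocyte- or macrophage-like cells of Co-Mac (25.5 to 29.0%), 7.90% of 2216 of VD-Mac (6.81 to 9.10%) and 8.79% of 546 of hSTSG (6.55 to 11.5%). Granulocyte-like shares were 16.4% and 7.89%, and mature DC-like shares 2.09% and 1.39%. In fibroblast-like cells, which should lack the receptor, 0 of 141 cells had a UMI, which allows a share of up to 2.13%. The graft share in macrophage-like cells was above that limit. Before thinning, 86.2, 47.4 and 42.3% of monocyte- or macrophage-like cells had a UMI at median depths of 23159, 17471 and 13318, and 0.699% of fibroblast-like cells at 25321. Thinning left out 1, 3, 43 and 2 cells of these 4 groups.

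**Figure D2:**
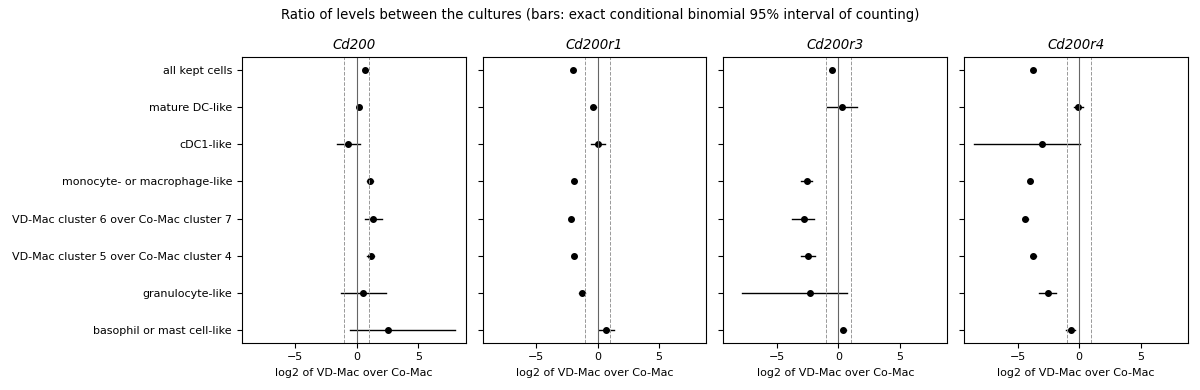
Log2 ratio of the summed CPM of VD-Mac over Co-Mac for each gene in all kept cells, in cell classes and in 2 pairs of clusters; points are ratios, bars exact conditional binomial 95% intervals of counting, and dashed lines mark 2-fold. In monocyte- or macrophage-like cells *Cd200r1* (-1.96), *Cd200r3* (-2.59) and *Cd200r4* (-3.96) lay below the lower dashed line, and *Cd200* (1.07) above the upper one. In mature DC-like cells *Cd200* (0.14), *Cd200r1* (-0.33) and *Cd200r4* (-0.05) lay between the dashed lines.

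*Cd200r4*, an activating receptor gene (ENSMUSG00000062082), had 94.1 CPM (92.5 to 95.8) over all Co-Mac cells, 7.00 (6.53 to 7.50) over all VD-Mac cells and 21.9 (20.0 to 23.9) over all graft cells. It was 13.5-fold lower in VD-Mac than in Co-Mac, a log2 ratio of -3.75 (-3.85 to -3.65). The log2 ratio was -3.61 with the Co-Mac make-up and -3.09 with a mitochondrial limit of 5%.

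In monocyte- or macrophage-like cells *Cd200r4* was at 153 CPM (150.3 to 156) in Co-Mac and 9.86 (8.98 to 10.8) in VD-Mac. This was a 15.5-fold difference, with a log2 ratio of -3.96 (-4.09 to -3.82). The ratio ran from -3.33 with a mitochondrial limit of 5% to -4.61 without the cells of highest doublet score. Between the clusters with little *Mki67* the levels were 267 and 12.9 CPM, a 20.6-fold difference (log2 ratio -4.37, -4.56 to -4.18). Between the cycling clusters they were 103 and 7.77 CPM (-3.72, -3.93 to -3.53). The log2 ratios of *Cd200r1* in these pairs were -2.15 and -1.92, and since the members were selected on such values no conclusion is drawn from the difference. Graft cells of the class had 41.8 CPM (37.8 to 46.2), between the cultures, with 49.8 in cluster 2 and 28.1 in cluster 3.

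Granulocyte-like cells had 33.9 CPM of *Cd200r4* (28.6 to 39.8) in Co-Mac, 5.86 (3.63 to 8.96) in VD-Mac and 3.35 (1.09 to 7.83) in hSTSG, where all 5 UMIs lay in cluster 9. The log2 ratio of the cultures was -2.53 (-3.26 to -1.86). In the cells with at least 10 *S100a8* UMIs it was -1.81 (-2.79 to -0.94), from 23.0 and 6.56 CPM, a change of over 1.5 times in the ratio. Mature DC-like cells had 2.63 CPM in Co-Mac and 2.54 in VD-Mac, with a log2 ratio of -0.05 (-0.44 to 0.33), and 0 UMIs in hSTSG, with a limit of 2.84 CPM.

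Basophil or mast cell-like cells had the highest *Cd200r4* levels, 388 CPM (328 to 455) in Co-Mac and 239 (194 to 291) in VD-Mac, and 1 UMI in hSTSG. Their log2 ratio was -0.70 (-1.08 to -0.33) and 0.15 with each culture clustered on its own, so its direction depended on the clustering. Of the graft B lineage-like cells, 5 held 53 UMIs (59.5 CPM), and 45 of these lay in the same cell of 95060 UMIs with 0 UMIs of *Igkc* and *Cd79a*. The level without that cell was 10.1 CPM. T cell-like cells had 10.1 CPM (6.06 to 15.7), with 18 of 19 UMIs in cluster 4, and each group of the order not given here had 6 UMIs or fewer. Unnamed cluster 2 had 57.3 CPM of *Cd200r4* in Co-Mac and 3.77 in VD-Mac, a log2 ratio of -3.92 (-4.92 to -3.06). Cluster 9 had 104 and 29.7 CPM, VD-Mac cluster 8 had 6.06 and graft cluster 1 had 5.68.

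A *Cd200r4* UMI was found after thinning in 25.3% (23.6 to 27.0%) of monocyte- or macrophage-like cells of Co-Mac, 2.08% (1.52 to 2.76%) of VD-Mac and 7.33% (5.29 to 9.84%) of hSTSG, and in 0 of 141 fibroblast-like cells. The fibroblast-like cells are of the graft library and set no background for the cultures. Unthinned shares were 73.5, 14.3 and 31.4%. Within the cultures, mature DC-like shares after thinning were 0.570% in Co-Mac and 0.363% (0.188 to 0.634%) in VD-Mac, at median depths of 14457 and 13676 UMIs.

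Detection of *Cd200r4* was set side by side in cells with and without a *Cd200r1* UMI. In thinned monocyte- or macrophage-like cells of Co-Mac, *Cd200r4* was found in 32.2% of the 705 cells with a *Cd200r1* UMI and in 22.7% of the cells without one. Within cluster 7 alone the shares were 38.8% and 37.8%, and within cluster 4 they were 24.8% and 15.0%. In VD-Mac the class gave 2.86% and 2.01%, and in hSTSG 6.25% and 7.43%, from 5 and 3 cells with both genes. Granulocyte-like cells gave 7.84% and 3.28% in Co-Mac and 5.26% and 0.752% in VD-Mac, and mature DC-like cells of Co-Mac 1.82% and 0.544%, from 8, 3 and 1 cells with both genes. These differences were not tested.

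*Cd200r3*, an activating receptor gene of basophils and mast cells (ENSMUSG00000036172), had 5.82 CPM (5.41 to 6.24) over all Co-Mac cells, 4.16 (3.80 to 4.55) over all VD-Mac cells and 1.50 (1.04 to 2.10) over all graft cells. The log2 ratio of the cultures was -0.48 (-0.65 to -0.32), and 0.65 with a mitochondrial limit of 5%, so its direction over all cells depended on that limit.

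The highest levels lay in the basophil or mast cell-like clusters, which held 296 of the 771 UMIs in Co-Mac, 415 of 485 in VD-Mac and 21 of 34 in hSTSG. The level there was 766 CPM (681 to 858) in Co-Mac, 1010.4 (915 to 1112) in VD-Mac and 335 (207 to 512) in hSTSG. The log2 ratio of the cultures was 0.40 (0.18 to 0.62), and the 3 intervals of the levels did not overlap. The ratio was 1.26 with each culture clustered on its own. These clusters held 25 positive cells of 26, 35 of 36 and 7 of 13, and 8 of the 12 markers of the class reached 10 CPM in each library. *Prss34* was the most abundant marker in Co-Mac (8088 CPM) and VD-Mac (6897 CPM) and *Hdc* in hSTSG (11104 CPM), with 3, 3 and 4 markers at 0. Markers of other types differed between the cultures in these clusters. The eosinophil set summed to 8163 CPM in Co-Mac and 4424 in VD-Mac (3 of 5 at 10 CPM or more, led by *Prg2*), the granulocyte precursor set to 3224 and 1422 (4 of 7, led by *Ctsg*, 1 at 0), and the mature DC set to 463 and 1436 (7 of 8, led by *Ccl22*, 1 and 0 at 0). *Mki67* had 313 and 127 CPM. Their part in the ratios of *Cd200r1*, *Cd200r3* and *Cd200r4* in this class was not tested. After thinning, the shares with a *Cd200r3* UMI were 80.0% of 25 cells, 88.9% of 36 and 50.0% of 12. Of the thinned mature DC-like cells of the cultures, 0 of 2630 and 0 of 3304 had one, which allows up to 0.114% and 0.0908% at this depth only. In whole cells 11 of 2639 mature DC-like cells of Co-Mac (0.417%) and 16 of 3319 of VD-Mac (0.482%) had a UMI.

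Outside this class *Cd200r3* was found mainly in monocyte- or macrophage-like cells of Co-Mac. They had 431 UMIs in 234 of 2591 cells, 5.88 CPM (5.34 to 6.46), compared with 45 UMIs, 0.977 CPM (0.713 to 1.31), in VD-Mac and 5 UMIs, 0.528 CPM, in hSTSG. The log2 ratio of -2.59 (-3.07 to -2.14) concerns a level under 10 CPM, and it was -3.36 with a mitochondrial limit of 5%. In cells without a UMI of the basophil and mast cell genes *Cpa3*, *Mcpt8* and *Prss34*, a split chosen after seeing the data, it was -3.25 (-3.85 to -2.69), from 5.88 and 0.619 CPM. The cells with such a UMI held 7 of the 431 Co-Mac UMIs, in 4 of 28 cells, and 17 of the 45 VD-Mac UMIs, in 3 of 33 cells. Their higher level in VD-Mac (20.4 against 5.79 CPM) rests on those 3 cells, of which 1 held 10 UMIs. All 12 basophil or mast cell markers summed to 5.57 CPM in this class in Co-Mac and 6.71 in VD-Mac, with 4 and 5 of them at 0. Mature DC-like cells had 0.268 and 0.322 CPM in the cultures. cDC1-like cells of both cultures, and T cell-like, fibroblast-like, endothelial-like and granulocyte-like cells of the graft, had 0 UMIs.

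A gene was counted as lower or higher if the cultures differed 2-fold or more and the higher one reached 10 CPM. Over all cells, 3 members were measured at this level, 2 of which were lower in VD-Mac (*Cd200r1* and *Cd200r4*) and 0 higher, where 4.63% of 7732 genes were lower and 2.16% higher. In monocyte- or macrophage-like cells the same 2 genes were measured and both were lower, where 4.93% of 7848 genes were lower and 3.53% higher. In granulocyte-like cells both were again lower, where 2.41% of 7627 genes were lower and 1.74% higher. In mature DC-like cells *Cd200* and *Cd200r1* were measured and 0 were past 2-fold in either direction, where 2.48% of 6657 genes were lower and 2.31% higher. The members were chosen on this comparison, so nothing is read from these counts. After 1 CPM was added to each level, the median log2 ratio of the measured members was -1.98 over all cells and -2.88 in monocyte- or macrophage-like cells, beside -0.10 and -0.11 for all genes measured. The medians of gene lists below were computed in the same way.

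The 4 members and their relative *Cd200r2* lie together on chromosome 16. In the GRCm38 annotation, *Cd200r1* spans 44765736 to 44794978, *Cd200r4* 44811733 to 44839150, *Cd200r2* 44867097 to 44915840 and *Cd200r3* 44943678 to 44981380, all on the plus strand, and *Cd200* spans 45382135 to 45409053 on the minus strand. The receptor genes fill 215645 bases that hold these 4 protein-coding genes and no other, and 400754 bases separate them from *Cd200*. The count files carry no coordinates, and the submitters' notes and methods name other builds. Of the 31053 gene IDs, 30934 (99.6%) were found in this annotation.

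**Figure D3:**
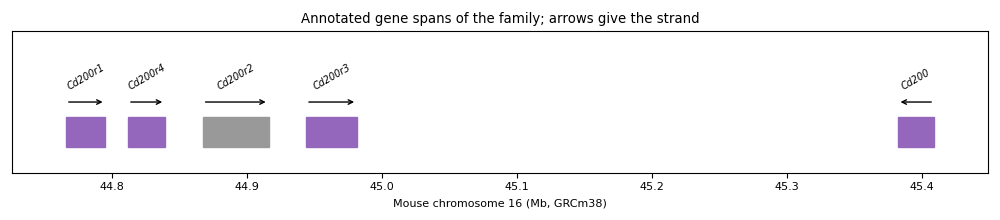
Annotated spans of the 5 family genes along mouse chromosome 16 (x axis, position in Mb of GRCm38), with the members in purple, *Cd200r2* in gray and arrows for the strand. The 4 receptor genes lie side by side within 215645 bases, and *Cd200* lies 400754 bases away on the other strand.

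Sequence shared by the paralogs could split reads between them. Of the 2081 stretches of 50 bases in the last 1000 bases of *Cd200r1* transcripts, 40 (1.92%) also occur in *Cd200r4* transcripts. Of 968 such stretches of *Cd200r4*, 35 (3.62%) occur in *Cd200r2* transcripts. *Cd200* and *Cd200r3* shared 0 with the family, although 162 of 3828 stretches of *Cd200r3* (4.23%) occur in transcripts of other genes. The annotation lists no gene that overlaps a member. *Cd200r2*, the remaining annotated receptor of the cluster, had 29 UMIs in Co-Mac, 0 in VD-Mac and 1 in hSTSG. The interval of its log2 ratio of VD-Mac over Co-Mac ended at -2.70.

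Because the activating receptor genes were both low in VD-Mac monocyte- or macrophage-like cells, their upstream sequences are shown, from the RefSeq promoter table for GRCm38.p6, 250 bases before the transcript start. *Cd200r3* (chr16:44943428-44943677, plus strand) and *Cd200r4* (chr16:44820478-44820727, plus strand) share an unbroken run of 32 bases, set in capitals, that ends closer to the start in *Cd200r4*. The RefSeq start of *Cd200r4* lies 8995 bases inside the gene span given above.
Cd200r3: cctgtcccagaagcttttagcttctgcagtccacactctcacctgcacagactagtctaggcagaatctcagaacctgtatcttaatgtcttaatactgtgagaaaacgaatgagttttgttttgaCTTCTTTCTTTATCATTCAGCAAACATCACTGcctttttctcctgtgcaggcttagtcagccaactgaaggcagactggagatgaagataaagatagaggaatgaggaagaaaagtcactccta
Cd200r4: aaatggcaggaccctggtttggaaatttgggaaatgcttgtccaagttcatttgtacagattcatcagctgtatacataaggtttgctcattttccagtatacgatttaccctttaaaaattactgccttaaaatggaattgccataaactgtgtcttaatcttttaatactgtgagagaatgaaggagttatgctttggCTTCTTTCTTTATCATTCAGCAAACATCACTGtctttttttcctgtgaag

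The shared run begins 124 bases before the start of *Cd200r3* and 50 bases before that of *Cd200r4*. With the sequences lined up on it, the longest ungapped stretch around the run with at least 80% identity had 121 bases. Of these, 97 (80.2%) were the same. The share is set by that cutoff and does not measure how alike the whole windows are. Between the other pairs of promoters in the table for this family, the longest shared run was 7 or 8 bases. *Cd200r1* has no entry in the table.

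Short motifs were searched in these promoters on both strands. AGGTCA and AGTTCA, half-sites of nuclear receptors such as the vitamin D receptor, occur in 13.8% and 11.9% of 27025 promoters of this length. GAGGAA, the core of PU.1 sites, occurs in 23.1%, and the palindrome with the spacing that STAT6 prefers in 5.86%. *Cd200r4* had 1 AGTTCA and 1 STAT6-type palindrome, *Cd200r3* had 2 GAGGAA, and *Cd200* had 0 of these motifs. The relative *Cd200r2* had 1 AGGTCA and 2 GAGGAA. A match is a description of letters in this window only.

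The genes most like each member were taken by the Pearson correlation of log2(CPM + 1) over 20 class and library groups, among 12236 genes. The groups share libraries and depth, so these values are descriptions. *Cd200* was most like *Ccser2* (0.893), followed by *Sema7a* (0.871), *Clic4* (0.859), *Ctnna1* (0.854) and *Eif5a2* (0.853). *Cd200r1* was most like *AU022793* (0.875), followed by *Bbip1* (0.861), *Ccdc115* (0.860), *Aldoa* (0.829) and *Rps6ka1* (0.829). *Cd200r4* was most like *Rnf128* (0.889), followed by *Ccl9* (0.830) and by the member *Cd200r1* (0.829), then *Slc7a8* (0.808) and *B3gnt7* (0.795). *Cd200r3* was most like the granule and IgE receptor genes *Prg3* and *Fcer1a* (0.969 each), followed by *Lypd6* (0.960), *Rnase12* (0.958) and *Prss34* (0.956). Of these, *Fcer1a*, *Prss34* and *Prg3* were among the markers used for naming cells.

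Downstream of CD200R1, 5 signalling genes were measured in monocyte- or macrophage-like cells. Of these, 1 was lower in VD-Mac and 0 higher, with a median log2 ratio of -0.45 beside -0.11 for all genes. Among all genes measured there, 4.93% were lower and 3.53% higher. *Dok2*, which encodes the adaptor that the receptor recruits, had 216 CPM in Co-Mac and 66.5 in VD-Mac (-1.70, -1.75 to -1.64). *Dok1* had 34.3 and 30.6 CPM, *Rasa1* 48.3 and 35.1, *Inpp5d* 73.0 and 49.2, and *Crkl* 20.2 and 15.4. In mature DC-like cells 0 of the 5 were past 2-fold, beside 2.48% of all genes lower and 2.31% higher.

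Of 7 adaptors and kinases of the activating receptors, 6 were measured in the monocyte- or macrophage-like class, with 1 higher and 0 lower. Among all genes measured there, 3.53% were higher and 4.93% lower. The median log2 ratio was -0.11 for the list and for all genes. *Tyrobp*, which encodes the DAP12 adaptor of the activating CD200 receptors, had 1179 CPM in Co-Mac and 1099.9 in VD-Mac (-0.10, -0.12 to -0.08). *Hcst*, which encodes the related adaptor DAP10, had 29.4 and 59.3 CPM (1.01, 0.93 to 1.10). In granulocyte-like cells 1 of 6 was lower, *Lat2* (16.5 and 6.42 CPM), beside 2.41% of all genes lower and 1.74% higher.

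Other paired receptors of myeloid cells differed in both directions in the monocyte- or macrophage-like class. Of 11 measured inhibitory receptors and ligands, 4 were lower and 1 higher, with a median log2 ratio of -0.43. Among all genes measured there, 4.93% were lower and 3.53% higher, with a median of -0.11. *Clec4a2* had 198 CPM in Co-Mac and 23.4 in VD-Mac (-3.09), *Lilr4b* 246 and 54.5 (-2.17), *Pirb* 92.2 and 25.6 (-1.85) and *Lilrb4a* 48.6 and 20.0 (-1.28), while *Clec12a* had 116 and 308 (1.41). *Cd47*, the most abundant of the list, had 269 and 366 CPM. Of 8 measured activating paired receptors, 3 were lower and 1 higher, with a median log2 ratio of 0.06. *Pira2* had 70.1 and 7.19 CPM (-3.29), *Pilrb1* 33.2 and 12.3 (-1.43) and *Pilrb2* 39.1 and 19.4 (-1.01), while *Trem2*, whose product also signals through DAP12, had 234 and 676 (1.53). In granulocyte-like cells, where the receptor members were lower, 0 of 12 inhibitory and 1 of 8 activating receptors of these lists were lower, the latter *Trem2* (234 and 106 CPM). Among all genes measured in this class, 2.41% were lower and 1.74% higher. In mature DC-like cells *Clec12a* (7.97 and 32.8 CPM) and *Trem2* (26.5 and 77.2 CPM) were higher and *Pira2* (18.8 and 9.02 CPM) lower. Among all genes measured in that class, 2.31% were higher and 2.48% lower.

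Of 12 measured genes of the IL-4 response, 5 were lower in VD-Mac and 0 higher in the monocyte- or macrophage-like class. Of all 7848 genes measured there, 4.93% were lower and 3.53% higher. The median log2 ratio was -0.76 for the list and -0.11 for all genes. *Mgl2* had 799.9 CPM in Co-Mac and 69.3 in VD-Mac (-3.53), *Clec10a* 47.2 and 9.84 (-2.26), *Pdcd1lg2* 36.4 and 9.95 (-1.87), *Mrc1* 108 and 30.0 (-1.84) and *Ccl17* 3639 and 1208 (-1.59). Of 4 cytokine and enzyme genes restrained by CD200 receptor signalling, 2 were measured. *Il1b* was higher, at 20.3 and 40.8 CPM (1.01), and *Tnf* had 50.3 and 74.8 CPM (0.57). *Il6* (1.20 and 3.04 CPM) and *Nos2* (6 and 0 UMIs) were under 10 CPM. *Il1b* was also a leading gene of the Co-Mac granulocyte-like cluster. Granulocyte markers in the monocyte- or macrophage-like class summed to 3659 CPM in Co-Mac and 9399 in VD-Mac, and their part in the *Il1b* ratio was not tested. Of the IL-4 genes 4 of 11 were lower in granulocyte-like cells (*Mgl2*, *Clec10a*, *Pdcd1lg2* and *Pparg*) and 3 of 9 in mature DC-like cells (*Ccl22*, *Mgl2* and *Pdcd1lg2*), with 0 higher in either. Among all genes measured, 2.41% were lower and 1.74% higher in granulocyte-like cells, and 2.48% and 2.31% in mature DC-like cells.

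In the mature DC-like cells that held most *Cd200*, 12 regulatory and maturation genes were measured, of which 3 were lower in VD-Mac and 0 higher. Of all 6657 genes measured there, 2.48% were lower and 2.31% higher. The median log2 ratio was -0.43 for the list and 0.069 for all genes. *Cd40*, the receptor for T cell help, had 34.8 CPM in Co-Mac and 9.18 in VD-Mac (-1.92), *Aldh1a2*, which makes retinoic acid, 168 and 50.3 (-1.74), and *Pdcd1lg2* 68.9 and 27.0 (-1.35). *Ccr7*, the most abundant, had 1188 and 1434 CPM (0.27). *Cd200* itself, at 52.4 and 57.7 CPM, was among the genes of this class that stayed within 2-fold.

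These values come from 1 library per condition, so differences between cultures, mice or runs cannot be told apart from the treatment, and the intervals hold counting error alone. The cell classes rest on marker RNA. Different clusters make up most of the mature DC-like class and the monocyte- or macrophage-like class in the cultures. Free RNA and doublets were not removed. RNA of CD200 and its receptors says nothing about protein at the surface, binding or signalling, and splice forms were not separated. Basophil or mast cell-like, B lineage-like and endothelial-like groups held under 50 cells each. The graft differs from the cultures in tissue, day and depth, so its levels are set beside theirs and not compared as an effect.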

How the data were processed

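The authors deposited unnormalized UMI counts of mouse genes for each barcode; the file headers name Cell Ranger 3.1.0 and the submitters' notes Seurat 3.1.1. Members and gene lists were chosen with earlier results of these data known. A barcode was kept with 300 genes or more, under 100000 gene UMIs and a mitochondrial share of UMIs under 10%. Clusters came from Seurat 5.3.0 in R 4.3.3 (2000 variable genes without members and list genes, 15 components, 15 neighbours, resolution 0.5), cultures together without integration and the graft on its own. A cluster took its best marker set at a mean log2 ratio of 0.5 or more (5 CPM added), with 3 markers in 25% of its cells and 10 cells or more, unless its 10 leading genes held more markers of another set. This rule and the splits by marker UMIs were settled after the clusters were seen. Scrublet in scanpy 1.11.5 called 3, 3 and 9 doublets, under 0.5% of each library, and so has not worked; doublets were kept, and an alternative removed the 421, 623 and 37 highest scores. Sums and intervals used Python 3.11.15, numpy 2.4.6 and scipy 1.17.1. Named genes are the members, list genes past 2-fold in the class named, the most abundant of a list or in lists of 5 or fewer, and the 5 genes most like each member. Tested on simulated data, VD-Mac over Co-Mac over all cells, 199 of 200 genes changed 4-fold were recovered. Of the unchanged genes among 7413, 0 were called. The changed genes were at 10 CPM or more, and the simulated counts held Poisson error alone. The result therefore checks the calculation and gives no error rate for these libraries. No p-value was computed with 1 library per condition. Hashtag antibody counts were not used here.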

Additional observations from a re-analysis of the deposited data

How the results depend on the processing

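The cause of each shift below was not tested unless stated; values are log2 ratios of VD-Mac over Co-Mac. A mitochondrial limit of 5% kept 3125 and 3619 cells of Co-Mac and VD-Mac. It gave -1.79 for *Cd200r1* and -3.09 for *Cd200r4* over all cells, -1.83 and -3.33 in monocyte- or macrophage-like cells, and 0.67 for *Cd200r3* in basophil or mast cell-like cells. It reversed *Cd200* in monocyte- or macrophage-like cells (-0.068) and *Cd200r3* over all cells (0.65). In monocyte- or macrophage-like cells, *Cd200r1* and *Cd200r4* were at -2.40 and -4.61 without the highest doublet scores, -2.12 and -4.18 at resolution 0.8, and -1.89 and -3.80 with each culture clustered on its own. That clustering gave 1.26 for *Cd200r3* in basophil or mast cell-like cells and reversed *Cd200r4* there (0.15). Median-of-ratios scaling gave 0.76 for *Cd200* and -1.93 for *Cd200r1* over all cells and -1.85 for *Cd200r1* in monocyte- or macrophage-like cells; all genes there had a median shift of -0.10. A mean over cells of UMIs per 10000 gave 0.28, -1.78 and -3.59 for *Cd200*, *Cd200r1* and *Cd200r4* over all cells and -4.12 for *Cd200r4* in monocyte- or macrophage-like cells. With the Co-Mac make-up in both, the values over all cells were 0.28, -1.81 and -3.61. Barcodes with 3 or more C1q UMIs, an alternative chosen after seeing the data, gave -2.04 for *Cd200r1*. The direction of *Cd200r1* and *Cd200r4* over all cells and in monocyte- or macrophage-like cells was the same in all alternatives run.

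Genes 2-fold higher and lower over all cells numbered 167 and 358, 390 and 712 at 1 CPM or more (more genes tested), 75 and 140 at 50 CPM or more (fewer tested), and 208 and 290 with median-of-ratios scaling. Of the other 172 values of ratios, 158 stayed within the counting interval, 11 moved and the 3 above reversed. Within that interval, which held 0, the sign also differed for *Cd200* in B lineage-like cells (1.05 without the highest doublet scores, 0.71 as a mean over cells, -0.26 as reported) and granulocyte-like cells (-0.087 without the highest doublet scores), *Cd200r3* in mature DC-like cells (-0.49 with 30 components) and *Cd200r1* in cDC1-like cells (-0.033 in 2 alternatives). Among the values that moved, *Cd200r3* in mature DC-like cells was at 1.62 with a mitochondrial limit of 5%, beside 0.26 as reported. Of 568 values of levels 458 stayed within the counting interval, and of 288 values of shares 151 did. Classes under 50 cells are limited by their number of cells. With 1 library per condition, differences between cultures, mice or runs cannot be told apart from the treatment. No paired analysis was possible because each condition had 1 library.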
